A study of Mus musculus with 168 samples.

Results

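The samples described here are red nucleus neurons of 11 control mice, cut by laser from frozen sections at postnatal days 2, 5 and 10. They were chosen by the labels, as the libraries whose group is red nucleus and control at one of these ages. This gave 4 mice at day 2 (14, 26, 28 and 244), 3 at day 5 (30, 34 and 75) and 4 at day 10 (247, 252, 253 and 254), each with 1 library, or 11 of the 168 libraries of the series. Per-mouse values below follow this order of mice. The series studied the delta7 mouse model of spinal muscular atrophy (SMA), in which motor neurons are lost because the survival motor neuron protein is scarce. The controls were Smn+/+/SMN2+/+/SMN∆7+/+, so they kept both copies of mouse Smn and also carried both human transgenes, as their SMA littermates did. The SMA mice were Smn-/-/SMN2+/+/SMN∆7+/+, and 4 of them at each of the 3 ages gave red nucleus samples. Motor neurons of control mice were used for comparison. One set, called ocular below, was cut from the nuclei that move the eye, oculomotor and trochlear (4 mice at each age) and the other was from the lumbar spinal cord (4 mice at day 2, 5 at day 5 and 4 at day 10). About 150 cells were collected per tube, and polyA RNA was made into libraries with Smart-seq2, which copies whole transcripts into cDNA, and Tn5 tagmentation. Expression is given in RPKM (reads per kilobase of gene per M mapped reads). The mouse was the replicate, and a p-value measures the spread between mice.

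The red nucleus is a midbrain nucleus whose large glutamatergic neurons send the rubrospinal tract to the spinal cord and take part in the control of limb movement. They receive input from the cerebellum and cortex and fire at high rates in the adult. In the first weeks after birth, neurons of this kind stop extending their axons, replace embryonic channels, receptors and release proteins with adult forms, and gain perineuronal nets. Over the same period the tracts around them become myelinated.

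Depth was 3.51 to 12.9 M reads in 10 of the 11 libraries, with a median of 5.88 over all, and 0.342 M in the library of mouse 252 at day 10. Between 12121 and 17604 genes were above 0. In mouse 252, 3 reads in a gene of 2 kb equal 4.39 RPKM, so values below that rest on fewer than 3 reads there. Mouse Smn1 was above 0 in all 11 mice, at 21.2 to 51.8 RPKM at day 2 and 7.76 to 40.97 at day 10, against 0 to 1.98 in the SMA mice. The vesicular glutamate transporter Slc17a6 was at 132.1 to 202.7 RPKM at day 10, and the 7 neuronal and red nucleus markers summed to 1989 to 2239 RPKM at day 2 and 2622 to 3097 at day 10. Pou4f1, a transcription factor of red nucleus neurons, was at 173.5, 528, 257.1 and 349 RPKM at day 2 and 291, 112.9, 77.7 and 97.5 at day 10. By the test described below it was called lower at day 10. That call was lost without mouse 26, 244, 252, 253 or 254 and with only control mice in the fit. Of the motor neuron markers, Chat, which makes acetylcholine, was at no more than 1.72 RPKM. The motor neuron list summed to at most 137.4 RPKM at day 2 and 119.2 to 289.3 at day 10, most of it from Ache and Prph, which other neurons also express, and its part in the results was not tested. The day 2 library of mouse 28 held genes of dopaminergic neurons, which lie beside the red nucleus. Its summed level of 6 dopaminergic markers was 222.4 RPKM, with Th at 96.3, while Th was at 0 in the other day 2 mice. The numbers in the library names separated the ages, with day 5 lowest, day 2 next and day 10 highest and no overlap, so age and library series cannot be told apart.

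The first principal component over all tested genes ordered the samples by age and carried 21.9% of the variance. The day 2 mice lay between −55.9 and −35.8, the day 5 mice between −23.8 and −3.8, and the day 10 mice between 40.2 and 98.1, with mouse 252 at the far end. Of 16134 genes tested, 1797 (11.1%) differed between day 10 and day 2 at an adjusted p under 0.05 (limma, 2-sided, Benjamini-Hochberg over all genes). At day 10, 923 genes were higher (5.72%) and 874 were lower (5.42%). Differences throughout are on the log2(RPKM + 1) scale, called the log2 scale below, which understates the change of genes with low values. Mouse values at the 2 ages did not overlap for 956 genes that were higher (5.93%) and 959 that were lower (5.94%). These are pools of cells, so a change in the number of cells of one type cannot be told apart from a change in RNA per cell. Leaving out mouse 252 gave 1247 calls, and leaving out mouse 28 gave 1647. With only the 11 control mice in the fit there were 914. A test of any change over the 3 ages called 1508 genes (9.35%).

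**Figure D1:**
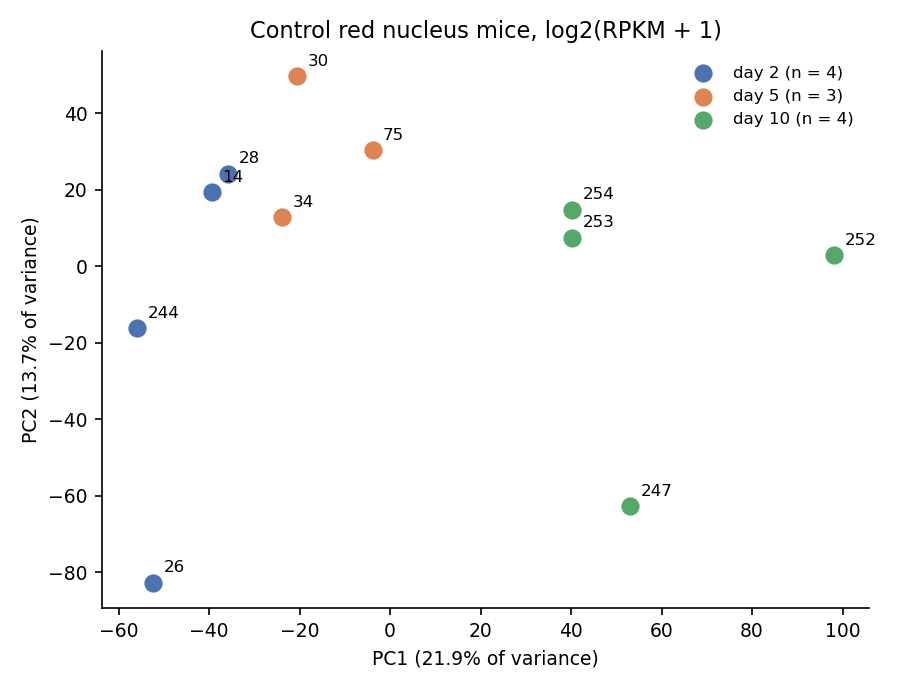
Position of the 11 control red nucleus samples on the first and second principal components of log2(RPKM + 1), each point 1 mouse labelled by its number and coloured by age. The day 2 mice sit at −55.9 to −35.8 on the first component, the day 5 mice at −23.8 to −3.8 and the day 10 mice at 40.2 to 98.1.

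Day 5 lay between the other ages for most of these genes, and the step from day 2 to day 5 gave few calls of its own. Only 28 genes differed between day 5 and day 2 (0.174%), 19 higher (0.118%) and 9 lower (0.0558%), while 644 differed between day 10 and day 5 (3.99%), of which 385 were lower at day 10 (2.39%) and the rest higher (1.61%). The 3 comparisons share mice and span unequal numbers of days, so they are given side by side only and are not rates of change. The count at day 5 moved between 9 and 77 when single mice were left out, with 9 without mouse 30, 12 without mouse 34, 17 without mouse 75, 77 without mouse 28, 50 without mouse 247 and 52 without mouse 252. Between day 10 and day 5 the share of tested genes called went from 3.99% to 1.60% without mouse 30, 1.66% without mouse 34, 2.49% without mouse 252 and 1.20% with only control mice in the fit. The 923 genes that rose had a median difference of 1.45 from day 2 to day 10, of 0.56 from day 2 to day 5 and of 0.80 from day 5 to day 10. For the 874 that fell, the medians were −1.44, −0.41 and −1.01. The day 5 mean lay between the other means for 774 of the 923 and for 730 of the 874.

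Genes differed in when they moved. Mbp, a structural protein of myelin, moved early and went on rising. It was at 3.02, 3.31, 3.74 and 0.139 RPKM in the day 2 mice, 48.8, 63.1 and 108.8 in the day 5 mice and 266, 293, 413 and 223.4 in the day 10 mice. It rose by 4.50 ± 0.40 (SE; adjusted p = 1.6e-06) from day 2 to day 5 and by 2.05 ± 0.40 (SE; adjusted p = 0.00454) from day 5 to day 10, with no overlap between ages. Cd24a, a surface glycoprotein of immature neurons (chr10:43578284-43584265, plus strand), fell mostly in the first step. It was at 31.8, 42.5, 18.4 and 65.03 RPKM in the day 2 mice, 8.88, 3.33 and 2.96 in the day 5 mice and 1.25, 1.61, 1.08 and 0.785 in the day 10 mice. The fall from day 2 to day 5 was called (-2.73 ± 0.42 (SE; adjusted p = 0.0094)), and that from day 5 to day 10 was not (-1.36 ± 0.42 (SE; adjusted p = 0.0684)). The call at day 5 was lost with only control mice in the fit. Kcng4, a modifier subunit of Kv2 potassium channels, appeared late. It was at 0, 0, 0.0745 and 0 RPKM in the day 2 mice, 0, 0 and 0.147 in the day 5 mice and 16.01, 20.3, 14.8 and 8.20 in the day 10 mice, so it was at or near 0 in all 7 mice of days 2 and 5 and above 8 RPKM in every day 10 mouse. The difference between day 10 and day 5 was 3.85 ± 0.45 (SE; adjusted p = 3.35e-05). Mog, a late myelin glycoprotein, had the same course, with 0, 0.327, 0 and 0 RPKM in the day 2 mice, 0, 0.227 and 0 in the day 5 mice and 17.8, 17.2, 11.6 and 8.37 in the day 10 mice, and rose by 3.73 ± 0.48 (SE; adjusted p = 0.000129) from day 5 to day 10. Fam159b went the other way and stayed high to day 5. It was at 17.4, 34.3, 31.7 and 25.2 RPKM in the day 2 mice, 43.0, 54.4 and 32.1 in the day 5 mice and 3.35, 0, 0.187 and 0.652 in the day 10 mice, and fell by 4.66 ± 0.48 (SE; adjusted p = 5.7e-06) from day 5 to day 10.

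The 2 largest rises were of the myelin genes Mbp and Mobp. Of 26 oligodendrocyte and myelin genes, 23 were tested, 11 rose and 2 fell (56.5% called, against 11.1% of all tested genes). The median difference was 1.39 against −0.0059 over all tested genes, and without mouse 252 the counts were 9 and 2. Mbp had a difference from day 2 to day 10 of 6.55 ± 0.37 (SE; adjusted p = 1.44e-10). Mobp, a myelin-associated basic protein (chr9:120149707-120181484, plus strand), was listed at 0 in all 4 day 2 mice. It was at 5.35, 0.0889 and 11.1 RPKM at day 5 and 43.8, 33.7, 71.3 and 24.6 at day 10 (adjusted p = 1.92e-05), and no fold is given against 0. Mal, a proteolipid of compact myelin, was at 0 in every day 2 mouse and at 17.2, 12.04, 8.55 and 3.51 at day 10 (adjusted p = 7.8e-06). Cldn11, Ugt8a, Bcas1, Mag, Cnp and Fa2h also rose. The call of Cnp was lost without mouse 14, 28, 244, 247, 252 or 253, and that of Fa2h without mouse 14, 26, 28, 244, 252 or 253. Tspan2 and Ndrg1 fell, from 20.2 to 44.6 RPKM at day 2 and 6.90 to 12.4 at day 10 for Tspan2 and from 3.70 to 11.5 RPKM at day 2 and 0.342 to 2.32 at day 10 for Ndrg1. Genes of the oligodendrocyte lineage rather than of myelin, Olig1, Olig2 and Sox10, had differences of 0.58, 0.74 and 1.46 that did not pass. The summed level of the whole list was 68.1 to 119.4 RPKM at day 2, 149.2 to 220.3 at day 5 and 400.3 to 796.1 at day 10. The samples were cut as neurons, and the part that oligodendrocyte RNA has in these values was not tested.

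Markers of the remaining cell types changed less. Of 16 astrocyte genes, 4 rose and none fell (25% called, against 11.1% of all tested genes), with a median of 0.23. Aldoc, Sparcl1 and S100b were among those that rose. The defining astrocyte genes stayed low or uncalled. Gfap was at 0 to 0.645 RPKM over the 11 mice, and Aqp4, Gja1 and Slc1a3 had differences of −0.68, −0.92 and −0.73. S100b, a calcium-binding protein of glia and of some large neurons, was at 9.13, 2.63, 25.5 and 4.93 RPKM in the day 2 mice, 25.7, 13.8 and 29.8 in the day 5 mice and 221.02, 274, 230.7 and 126.8 in the day 10 mice. Every day 10 mouse was above every earlier mouse, and the difference was 4.56 ± 0.48 (SE; adjusted p = 1.64e-06). Sparcl1, a secreted matrix protein, was at 49.8 to 104 RPKM at day 2 and 201.8 to 359 at day 10 and rose by 1.98 ± 0.25 (SE; adjusted p = 1.21e-05). The summed astrocyte list, most of it Aldoc, S100b and Sparcl1, went from 752.8 to 1101 RPKM at day 2 to 1849 to 2402 at day 10, and its part in the results was not tested. Among 9 tested microglia genes only the complement gene C1qb rose (11.1% called, the same share as over all tested genes). It was at 0 in all day 2 mice and at 9.03, 5.38, 2.70 and 5.76 at day 10 (adjusted p = 0.00235). The microglia sum was 21.3 to 45.5 RPKM at day 2 and 19.1 to 30.3 at day 10. Of 6 vessel genes Ly6c1 alone rose (16.7% called), and its call was lost without mouse 14, 26, 252 or 253. No gene was called among 4 red blood cell genes, 4 GABAergic genes, 5 dopaminergic genes or 3 motor neuron genes tested.

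Of 31 genes of the growth cone and the immature neuronal cytoskeleton, 18 fell and none rose (58.1% called, against 11.1% of all tested genes). The median difference was −1.01. Without mouse 252, 17 fell and none rose. Dcx, the microtubule protein doublecortin of migrating and newly formed neurons (chrX:143855842-143933311, minus strand), was at 40.1, 24.3, 28.8 and 30.6 RPKM in the day 2 mice, 20.5, 13.6 and 9.58 in the day 5 mice and 0.761, 1.61, 2.76 and 2.95 in the day 10 mice. The ages did not overlap, and Dcx fell by 3.45 ± 0.35 (SE; adjusted p = 1.14e-06). Marcks, a membrane protein that binds actin and calmodulin, had a mean of 247.95 ± 48.6 RPKM (SD, n = 4) at day 2, and was at 125.04, 169.1 and 95.8 in the day 5 mice and 29.9, 19.5, 26.7 and 35.6 in the day 10 mice. The ages did not overlap. It fell by 3.12 ± 0.21 (SE; adjusted p = 1.8e-09) and had the smallest adjusted p of the falling genes named here. Its relative Marcksl1 fell by 2.02 ± 0.32 (SE; adjusted p = 0.00019). Gap43, the growth-associated protein of axon terminals, was at 1774, 1756, 2321 and 1753 RPKM in the day 2 mice, 1570, 1590 and 1383 in the day 5 mice and 682, 513, 1181 and 659.6 in the day 10 mice. It stayed abundant, and the highest day 10 mouse was below the lowest day 2 mouse, with a difference of -1.38 ± 0.24 (SE; adjusted p = 0.000416). Basp1, which acts with Gap43 at the membrane, fell by 0.99 ± 0.17 (SE; adjusted p = 0.000364).

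Tubulins split between rises and falls, while no collapsin response mediator rose. Tuba1a, the main alpha tubulin of young neurons, was at 3495, 3040, 3170 and 3961 RPKM at day 2 and 1191, 1050, 2025 and 2156 at day 10, and fell by 1.15 ± 0.19 (SE; adjusted p = 0.00029). Tubb2b fell by 2.45 ± 0.44 (SE; adjusted p = 0.000632) and Tubb5 by 0.94 ± 0.12 (SE; adjusted p = 2.53e-05). In contrast Tuba4a, an alpha tubulin of mature axons, was at 141, 65.9, 146 and 93.2 RPKM at day 2 and 234.3, 416, 228.3 and 273 at day 10, and rose by 1.39 ± 0.26 (SE; adjusted p = 0.000864). Tubb4b rose by 0.94 ± 0.19 (SE; adjusted p = 0.00209). Tubb3, the neuron-specific beta tubulin, and Tubb2a had differences of −0.31 and −0.11 that were not called. Of the mediators of semaphorin signals, Crmp1, Dpysl2, Dpysl3 and Dpysl5 fell and Dpysl4 was not called (0.08). Crmp1 was at 354, 307, 342 and 374 RPKM at day 2 and 79.4, 130.3, 112.6 and 124.7 at day 10, with a difference of -1.64 ± 0.21 (SE; adjusted p = 1.56e-05). Thymosin beta 4, Tmsb4x, which holds actin monomers, was at 6930, 8075, 7658 and 8214 RPKM in the day 2 mice, 7971, 11828 and 8646 in the day 5 mice and 3647, 2900, 4292 and 4033 in the day 10 mice. Days 2 and 5 overlapped, and every day 10 mouse was below every earlier mouse, with a difference of -1.07 ± 0.18 (SE; adjusted p = 0.000343) between days 10 and 2.

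Neurofilament genes, whose products fill large axons, rose. Of 7 intermediate filament genes tested, 4 rose and 1 fell (71.4% called, against 11.1% of all tested genes). Nefh, the heavy subunit and the last to appear in development, was at 181.8, 159.1, 94.8 and 83.5 RPKM in the day 2 mice, 177.5, 156.5 and 237.1 in the day 5 mice and 447, 524, 598 and 559 in the day 10 mice. All day 10 mice were above all earlier mice, and Nefh rose by 2.10 ± 0.26 (SE; adjusted p = 1.02e-05). Nefl (chr14:68083863-68089095, plus strand) was at 1901, 1803, 1519 and 1802 RPKM at day 2 and 4011, 2684, 3473 and 3291 at day 10 and rose by 0.93 ± 0.14 (SE; adjusted p = 7.83e-05). Nefm rose by 1.07 ± 0.15 (SE; adjusted p = 4.25e-05). The annotated interval of Nefm on the opposite strand (chr14:68082590-68124846, minus strand) contains Nefl, and whether the counting used strand is not given in the sources used here, so reads of the 2 genes may be mixed. Ina rose by 0.88 ± 0.23 (SE; adjusted p = 0.0167), a call lost without mouse 26 or 252. Vim, the filament of progenitors and glia, fell. It was at 18.1, 23.7, 9.31 and 15.9 RPKM at day 2 and 2.54, 0, 0.557 and 2.34 at day 10, a difference of -3.03 ± 0.50 (SE; adjusted p = 0.000281). Of 16 genes of the mature cytoskeleton, 8 rose and none fell (50% called). The number that rose was 7 without mouse 252 and 5 without mouse 244, and that list shares Mbp with the myelin list. Sptbn4, the spectrin of the axon initial segment and of nodes of Ranvier, was at 3.44, 4.22, 5.28 and 4.51 RPKM at day 2 and 8.69, 12.1, 13.5 and 12.3 at day 10. It rose by 1.23 ± 0.30 (SE; adjusted p = 0.0093), with no overlap, and was not called with only control mice in the fit. Tppp and Map1a also rose, Map1a only with mouse 244 in the fit.

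Voltage-gated sodium channels changed in both directions. Of 10 subunit genes tested, 4 rose and 4 fell (80% called, against 11.1% of all tested genes). Without mouse 252 the counts were 4 and 3. Among the pore-forming subunits, Scn8a, the adult channel of the initial segment and nodes, was at 18.5, 18.3, 21.7 and 21.5 RPKM in the day 2 mice, 29.9, 23.4 and 37.7 in the day 5 mice and 36.6, 73.3, 71.7 and 70.5 in the day 10 mice. Every day 10 mouse was above every day 2 mouse, mouse 247 being lowest, and Scn8a rose by 1.56 ± 0.26 (SE; adjusted p = 0.000341). Scn3a, the embryonic channel, was at 31.9, 27.5, 31.7 and 32.7 RPKM in the day 2 mice, 22.9, 33.3 and 24.1 in the day 5 mice and 10.9, 6.73, 9.33 and 11.2 in the day 10 mice. Days 2 and 5 overlapped, all day 10 mice were lower, and it fell by 1.62 ± 0.24 (SE; adjusted p = 0.000112). Scn9a was at 49.9, 104, 65.5 and 103 RPKM at day 2 and 1.79, 12.4, 20.8 and 30.02 at day 10 and fell by 2.63 ± 0.50 (SE; adjusted p = 0.00121). Scn2a1 fell by 0.88 ± 0.27 (SE; adjusted p = 0.0396), a call lost without mouse 14, 28, 244, 247, 252 or 253.

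The auxiliary beta subunits split in the same manner. Scn4b, which speeds the return of the current in neurons that fire fast (chr9:45138395-45154152, plus strand), was at 1.32, 2.33, 2.49 and 4.61 RPKM in the day 2 mice, 10.5, 6.92 and 8.87 in the day 5 mice and 39.1, 51.5, 62.7 and 64.5 in the day 10 mice. The 3 ages did not overlap, and Scn4b rose by 3.96 ± 0.36 (SE; adjusted p = 2.44e-07). Scn3b, an auxiliary subunit of young neurons (chr9:40269217-40291618, plus strand), lies on the same chromosome and went the other way. It was at 87.9, 43.7, 72.2 and 44.1 RPKM in the day 2 mice, 45.8, 36.4 and 41.8 in the day 5 mice and 5.74, 20.1, 9.20 and 13.8 in the day 10 mice and fell by 2.31 ± 0.33 (SE; adjusted p = 5.17e-05). Scn2b (chr9:45117782-45130070, plus strand), next to Scn4b, rose by 1.38 ± 0.40 (SE; adjusted p = 0.0272). Mouse 247 was far above the other day 10 mice for Scn2b, at 429.5 RPKM against 157.1 to 195.1, and the call was lost without mouse 14, 28, 244 or 247.

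**Figure D2:**
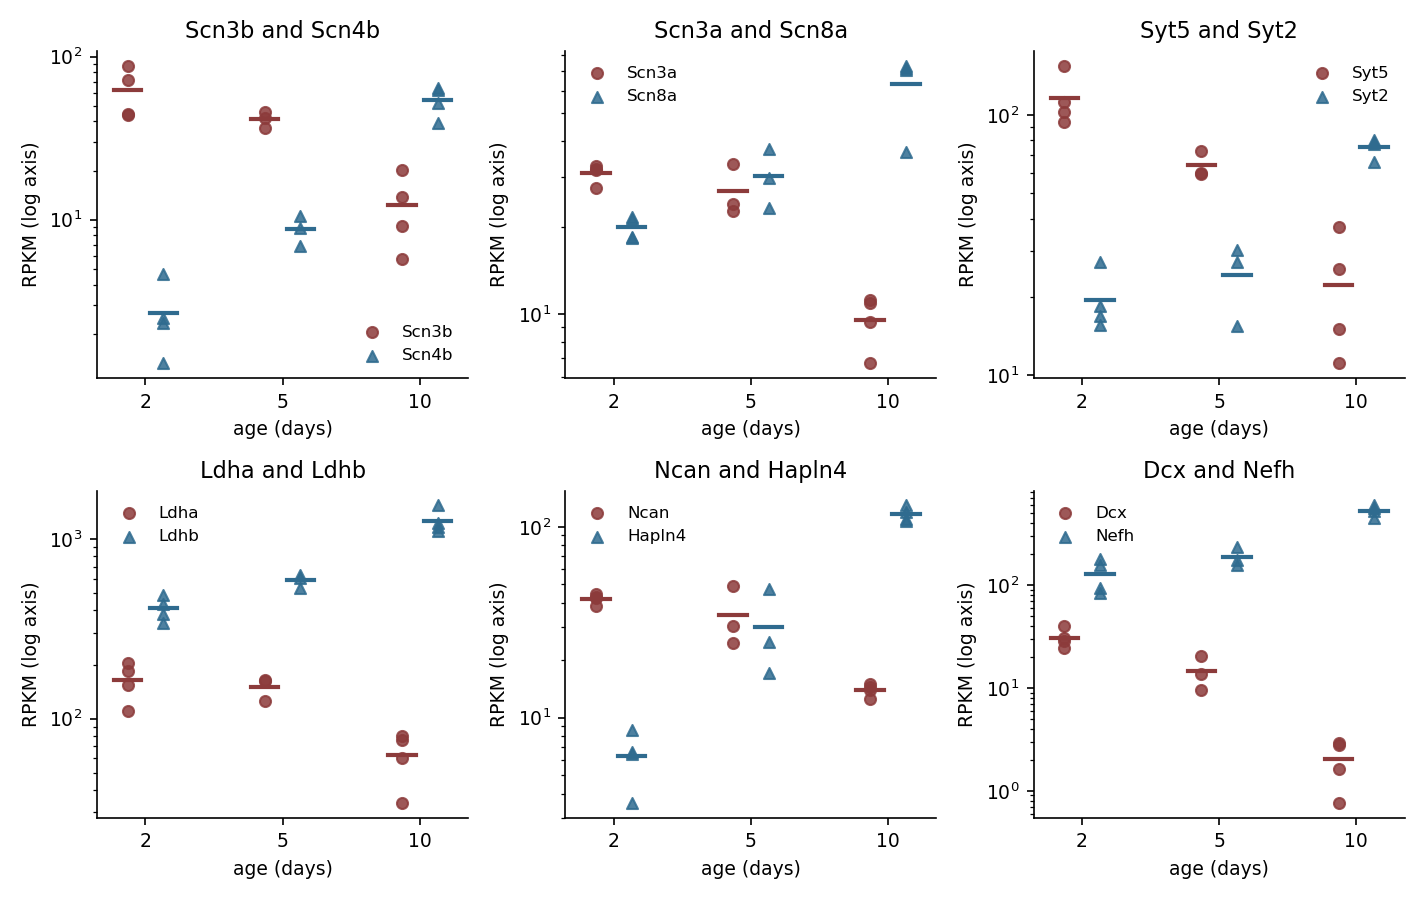
RPKM on a log axis in each control mouse by age for 6 pairs of related genes, with red circles for the gene that fell, blue triangles for the gene that rose and bars for the means. In the panel of sodium channel auxiliary subunits, Scn3b goes from 43.7 to 87.9 RPKM at day 2 to 5.74 to 20.1 at day 10, while Scn4b goes from 1.32 to 4.61 to 39.1 to 64.5.

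Potassium channel subunits had more rises than falls. Of 20 Kv1, Kv3, Kv7 and HCN subunits tested, 7 rose and 1 fell (40% called, against 11.1% of all tested genes). The median difference was 0.63. The counts were the same without mouse 252. Some genes of the Kv3 channels, which allow short action potentials at high rates, were among the rises. Kcnc1 was at 41.3, 15.2, 24.3 and 15.1 RPKM in the day 2 mice, 22.2, 20.2 and 28.6 in the day 5 mice and 48.1, 71.6, 74.4 and 68.7 in the day 10 mice and rose by 1.52 ± 0.26 (SE; adjusted p = 0.000416), and Kcnc2 rose by 1.72 ± 0.36 (SE; adjusted p = 0.00256). Kcnc4 was not called (0.33). Of the Kv1 group, Kcna1, a subunit found beside nodes of Ranvier, was at 19.8, 4.62, 6.996 and 13.0 RPKM in the day 2 mice, 18.04, 15.8 and 25.4 in the day 5 mice and 80.2, 65.2, 77.1 and 68.0 in the day 10 mice. It rose by 2.78 ± 0.32 (SE; adjusted p = 4.7e-06). Its relatives Kcna2, Kcna3, Kcna4 and Kcna6 had differences from −0.82 to 0.75, none called. The cytosolic beta subunits Kcnab2 and Kcnab3 rose, Kcnab2 by 2.55 ± 0.32 (SE; adjusted p = 1.3e-05) and Kcnab3 by 3.08 ± 0.51 (SE; adjusted p = 0.00029). Of the pacemaker channels, Hcn3 fell, a call lost without mouse 244 or 247. None of the 4 Kv7 genes tested was called.

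Genes of transmitter release changed member by member. Of 45 synaptic vesicle release genes, 16 rose and 6 fell (48.9% called, against 11.1% of all tested genes). The median difference was 0.42, and without mouse 252 the counts were 14 and 5. Syt2, the fast calcium sensor of hindbrain and midbrain synapses (chr1:134646677-134762593, plus strand), was at 16.8, 27.2, 18.4 and 15.5 RPKM in the day 2 mice, 27.1, 15.4 and 30.1 in the day 5 mice and 65.98, 79.95, 77.3 and 78.9 in the day 10 mice. Day 2 and day 5 overlapped and all day 10 mice were higher, with a difference of 1.93 ± 0.22 (SE; adjusted p = 4.9e-06). Vamp1, a vesicle SNARE, was at 79.8, 70.3, 92.0 and 65.5 RPKM in the day 2 mice, 115.3, 104 and 154 in the day 5 mice and 274, 373, 411 and 383 in the day 10 mice. It rose by 2.21 ± 0.19 (SE; adjusted p = 1.28e-07). Cplx1, a complexin that clamps and speeds SNARE fusion, was at 292, 196.8, 191.8 and 141 RPKM in the day 2 mice, 365, 275 and 425 in the day 5 mice and 692, 982, 909.5 and 899 in the day 10 mice. It rose by 2.11 ± 0.20 (SE; adjusted p = 5.36e-07), with no overlap between day 10 and the earlier ages. Rph3a, an effector of Rab3, rose by 3.25 ± 0.42 (SE; adjusted p = 1.94e-05), from 1.61 to 19.9 RPKM at day 2 and 69.9 to 125.8 at day 10. Syp, the vesicle protein synaptophysin, rose by 1.02 ± 0.16 (SE; adjusted p = 0.000162), and Napb by 0.87 ± 0.14 (SE; adjusted p = 0.000281).

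Syt4, Syt5, Rab3b, Unc13b and Synpr were among those that fell. Syt4, a synaptotagmin that does not bind calcium in the usual manner and is induced by activity, was at 1155, 1897, 1345 and 1980 RPKM in the day 2 mice, 611, 573 and 428 in the day 5 mice and 654, 385, 236.6 and 305 in the day 10 mice. Most of its fall came by day 5 (-1.55 ± 0.29 (SE; adjusted p = 0.0296)), though that call was lost without single mice, and over the whole interval it fell by 2.08 ± 0.27 (SE; adjusted p = 1.94e-05). Syt5 was at 103, 93.8, 112.5 and 155 RPKM in the day 2 mice, 59.3, 72.8 and 60.01 in the day 5 mice and 11.1, 15.1, 37.2 and 25.6 in the day 10 mice and fell by 2.45 ± 0.33 (SE; adjusted p = 2.85e-05). Sncb, beta-synuclein, rose by 0.98 ± 0.20 (SE; adjusted p = 0.0026). Rab3b was high to day 5, at 151, 51.8, 142 and 38.9 RPKM in the day 2 mice, 138, 116.98 and 118.5 in the day 5 mice and 7.72, 31.2, 11.8 and 16.1 in the day 10 mice, and fell by 2.39 ± 0.43 (SE; adjusted p = 0.000698), while Rab3a rose by 0.83 ± 0.17 (SE; adjusted p = 0.00215). The call of Synpr was lost without mouse 14 or 252. Vamp2, Snap25, Syt1 and Stx1a had differences of 0.42, 0.37, −0.34 and −0.99, none called.

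The sequences around the start sites of 3 genes of these groups are given here as examples. They are 1 that rose in the neuronal release list, 1 that fell in the growth cone list and 1 myelin gene. The genes were picked because each holds 1 of the motifs searched for, and a link between motif and direction was not tested. Each sequence is the RefSeq window from 250 bases before to 50 bases after a start site on GRCm38.p6, read 5′ to 3′ on the strand of the gene. The window shown for Syt2 is chr1:134646362-134646661 (plus strand), that for Dcx chrX:143933170-143933469 (minus strand) and that for Mobp chr9:120149492-120149791 (plus strand). Syt2 and Dcx have 2 windows each, and the first that held the motif is shown. Mobp has 1 window. Windows were searched on both strands for the extended half-site of oestrogen-related receptors (TCAAGGTCA), the letters of a TATA box (TATAAA) and a SOX motif (AACAAAG). Capitals mark the receptor half-site in Syt2 and the SOX motif in Mobp, both read on the opposite strand, and TATAAA in Dcx.
Syt2: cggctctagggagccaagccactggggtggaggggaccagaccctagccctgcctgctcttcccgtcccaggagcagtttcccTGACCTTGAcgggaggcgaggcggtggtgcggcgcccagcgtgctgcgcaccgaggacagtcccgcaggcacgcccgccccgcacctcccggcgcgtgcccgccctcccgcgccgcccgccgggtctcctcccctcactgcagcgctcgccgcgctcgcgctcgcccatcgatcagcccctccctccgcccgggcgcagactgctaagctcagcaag
Dcx: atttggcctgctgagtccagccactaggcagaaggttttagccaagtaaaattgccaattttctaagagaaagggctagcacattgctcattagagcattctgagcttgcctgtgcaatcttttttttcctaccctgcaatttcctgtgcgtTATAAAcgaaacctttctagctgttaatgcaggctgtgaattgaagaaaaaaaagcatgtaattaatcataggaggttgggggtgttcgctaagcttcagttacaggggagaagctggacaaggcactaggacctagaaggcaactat
Mobp: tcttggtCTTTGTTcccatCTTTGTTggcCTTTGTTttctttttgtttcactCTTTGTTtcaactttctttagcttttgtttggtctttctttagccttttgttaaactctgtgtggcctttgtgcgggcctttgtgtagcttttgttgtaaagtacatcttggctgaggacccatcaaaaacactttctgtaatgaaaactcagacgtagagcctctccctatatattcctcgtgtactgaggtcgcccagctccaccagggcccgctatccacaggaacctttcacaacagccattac

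Syt2 held 1 match to the receptor half-site, upstream of the start. Of 27025 genes with 1 or more windows, 0.466% held that motif in any of them, as did 1 of the 76 named genes that rose and had a window and none of the 55 that fell. The Dcx window held 1 match to TATAAA, 98 bases before the start, at any distance from which a match was counted. TATAAA was in a window of 15.7% of all these genes, of 7 of the 76 and of 9 of the 55. Mobp held 4 copies of the SOX motif. A SOX motif was in a window of 6.68% of the genes, of 4 of the 76 and of 7 of the 55. At least 4 copies were in 1 of 32851 windows (0.00304%), that of Mobp. The cut of 4 was Mobp's own count, so this share is a description and not a test. The 3 windows had a GC content of 74.3%, 43.0% and 43.3%. These are matches of letters, and binding of any factor was not measured.

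Receptor genes changed in both directions. Of 20 AMPA and kainate receptor genes and auxiliary subunits, 1 rose and 4 fell (25%, against 11.1% of all tested genes), with a median of −0.24, and without mouse 252 the counts were 2 and 3. Cacng4, an auxiliary AMPA receptor subunit of early development, was at 32.0, 27.1, 33.8 and 25.2 RPKM in the day 2 mice, 7.92, 11.05 and 9.64 in the day 5 mice and 0.948, 2.51, 2.79 and 2.20 in the day 10 mice. The 3 ages did not overlap, and it fell by 3.33 ± 0.38 (SE; adjusted p = 4.7e-06). Gria2, the subunit that keeps calcium out of AMPA receptors, was at 53.4, 50.4, 45.97 and 50.3 RPKM at day 2 and 22.6, 21.0, 24.7 and 30.96 at day 10. It fell by 0.996 ± 0.23 (SE; adjusted p = 0.00612), with no overlap. Gria3 rose by 0.92 ± 0.24 (SE; adjusted p = 0.016), was not called with only control mice in the fit, and was at 16.8, 14.7, 15.1 and 29.01 RPKM at day 2 and 34.3, 34.3, 36.7 and 35.8 at day 10. Cnih2 fell by 1.36 ± 0.30 (SE; adjusted p = 0.00447). The fall of Gria1 was lost without mouse 14, 28, 244, 247 or 252. Of 6 NMDA receptor genes, 2 were called (33.3%). Grin2b fell by 1.15 ± 0.33 (SE; adjusted p = 0.0233), a call lost without mouse 244 or 247. Grin1 rose by 1.36 ± 0.44 (SE; adjusted p = 0.0448), a call lost without mouse 14, 28, 244, 252, 253 or 254. Grin2a, the subunit of adult receptors, had a difference of −0.39 that was not called.

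Among 21 tested genes of GABA-A and glycine receptors and chloride transport, 2 rose and 4 fell (28.6%). The median was −0.35, and without mouse 252 there were 2 falls. Glra2, the fetal alpha subunit of the glycine receptor, was at 28.9, 33.1, 22.01 and 40.02 RPKM in the day 2 mice, 26.1, 17.1 and 17.4 in the day 5 mice and 10.5, 4.64, 8.23 and 9.85 in the day 10 mice. It fell by 1.80 ± 0.29 (SE; adjusted p = 0.000251). The adult subunit Glra1 had a difference of 1.27 that was not called. Glrb rose, a call lost without mouse 26, 28 or 247, and the falls of Gabra2 and Gphn were lost without single mice (Gphn without 252). The chloride transporters Slc12a2 and Slc12a5 had differences of 0.24 and 0.33, neither called.

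Perineuronal nets are the matrix that encloses fast-firing neurons. Of 20 genes of these nets and other matrix tested, 5 rose and 3 fell (40% called, against 11.1% of all tested genes). Without mouse 252 the counts were 4 and 3. Hapln4, a link protein that ties proteoglycans to hyaluronan (chr8:70083457-70090862, plus strand), was at 3.58, 8.67, 6.61 and 6.42 RPKM in the day 2 mice, 17.2, 24.9 and 47.2 in the day 5 mice and 110.4, 119.4, 129 and 107.4 in the day 10 mice. The ages did not overlap, and it rose by 4.05 ± 0.34 (SE; adjusted p = 1.28e-07). Hapln1, another link protein, was at 1.84, 2.19, 4.53 and 7.84 RPKM in the day 2 mice, 11.8, 21.98 and 16.3 in the day 5 mice and 70.7, 23.1, 41.2 and 24.9 in the day 10 mice, and rose by 3.02 ± 0.37 (SE; adjusted p = 1.13e-05). Acan, the core proteoglycan aggrecan, was at 0.682, 1.54, 1.67 and 0.509 RPKM at day 2 and 4.19, 5.97, 6.52 and 6.58 at day 10. It rose by 1.73 ± 0.36 (SE; adjusted p = 0.00249), with every day 10 mouse above every earlier mouse. Bcan, the proteoglycan brevican, rose by 1.90 ± 0.42 (SE; adjusted p = 0.00441). Ncan, the juvenile proteoglycan neurocan (chr8:70093085-70120873, minus strand), is the neighbour of Hapln4 and is read from the other strand. It was at 38.4, 43.1, 42.3 and 44.4 RPKM in the day 2 mice, 48.7, 30.3 and 24.8 in the day 5 mice and 12.6, 15.04, 13.9 and 14.5 in the day 10 mice, and fell by 1.52 ± 0.21 (SE; adjusted p = 4.54e-05). Ptprz1 and Nptxr fell by 1.74 ± 0.39 (SE; adjusted p = 0.00447) and by 1.03 ± 0.24 (SE; adjusted p = 0.00592), and the rise of Adamts1 was lost without most single mice.

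Of 45 axon guidance receptors and ligands tested, 8 fell and 1 rose (20% called, against 11.1% of all tested genes), with a median difference of −0.37. The number that fell was 5 without mouse 14, 28, 244, 247, 252 or 253, and no rise was called without mouse 26, 28, 244, 252, 253 or 254. Efnb3, an ephrin of the midline, was at 17.7, 11.2, 21.8 and 24.2 RPKM in the day 2 mice, 16.3, 6.68 and 6.85 in the day 5 mice and 1.42, 1.84, 1.31 and 3.22 in the day 10 mice. It fell by 2.73 ± 0.40 (SE; adjusted p = 7.18e-05), with no overlap between days 2 and 10. Plxnc1, a semaphorin receptor, was at 6.37, 3.82, 6.01 and 5.96 RPKM at day 2 and 1.36, 1.25, 0.972 and 0.283 at day 10 and fell by 1.75 ± 0.34 (SE; adjusted p = 0.00158). Efna2 fell by 2.20 ± 0.47 (SE; adjusted p = 0.00353), although the ages overlapped for it. Dcc, Robo1, Nrp1 and Epha4 had differences of 0.11, −0.91, −0.88 and 0.00, none called. Of 17 neurotrophic factor receptors, 11.8% were called, near the 11.1% of all tested genes. Ret rose by 1.47 ± 0.37 (SE; adjusted p = 0.0107) and Gfra2, which binds neurturin, fell by 2.20 ± 0.50 (SE; adjusted p = 0.00516). Ntrk2 and Ntrk3 were not called (−0.25 and 0.29).

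Energy genes had isoforms that moved against each other. Of 40 genes of ion pumps and energy metabolism, 19 rose and 4 fell (57.5% called, against 11.1% of all tested genes). The median difference was 0.64. The number that rose was 11 without mouse 252, 12 without mouse 244 and 13 under quantile normalisation. Ldhb, the lactate dehydrogenase subunit of oxidative tissue, was at 383, 488, 432 and 339.8 RPKM in the day 2 mice, 611, 535 and 628 in the day 5 mice and 1103, 1538, 1165 and 1227 in the day 10 mice. The 3 ages did not overlap, and Ldhb rose by 1.61 ± 0.14 (SE; adjusted p = 2.13e-07). Ldha, the subunit of glycolytic tissue, was at 203.7, 109.9, 185.2 and 155 RPKM in the day 2 mice, 164.8, 125.9 and 162 in the day 5 mice and 33.9, 59.99, 75.8 and 80.4 in the day 10 mice. Days 2 and 5 overlapped and all day 10 mice were lower, and it fell by 1.41 ± 0.23 (SE; adjusted p = 0.000311). Of the phosphofructokinases, Pfkp was at 560.0, 605, 453 and 629 RPKM at day 2 and 186.2, 381, 319 and 337 at day 10 and fell by 0.91 ± 0.20 (SE; adjusted p = 0.00403). Pfkm rose by 0.89 ± 0.24 (SE; adjusted p = 0.0161), a call lost without mouse 26 or 252. Pkm, a pyruvate kinase, rose by 1.16 ± 0.18 (SE; adjusted p = 0.000151). Ckb, the brain creatine kinase, was at 170.4, 261, 174.7 and 204.6 RPKM at day 2 and 517, 657, 489.8 and 473 at day 10, and rose by 1.40 ± 0.19 (SE; adjusted p = 3.95e-05). Fxyd6, a regulator of the sodium pump, was at 204.9, 150.3, 216.8 and 160.8 RPKM in the day 2 mice, 184.9, 130.4 and 146 in the day 5 mice and 18.7, 16.3, 29.9 and 57.2 in the day 10 mice. All day 10 mice were below all earlier mice, and it fell by 2.70 ± 0.33 (SE; adjusted p = 9.86e-06). The call of the pump subunit Atp1b1 was lost without mouse 244, 247 or 252. Sod2, the superoxide dismutase of mitochondria, rose by 0.93 ± 0.20 (SE; adjusted p = 0.00384), and Mdh1 and Ndufa4 rose by 0.91 ± 0.18 (SE; adjusted p = 0.00208) and by 0.78 ± 0.15 (SE; adjusted p = 0.0013).

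Calcium-binding genes changed in 7 of 22 cases (31.8%, against 11.1% of all tested genes), 5 rising and 2 falling (3 and 1 without mouse 252). The median was near 0, and its sign depended on the normalisation and on single mice. Pvalb, the buffer parvalbumin of fast-firing neurons (chr15:78191114-78206400, minus strand), was at 11.8, 104, 21.6 and 42.7 RPKM in the day 2 mice, 59.9, 58.5 and 132 in the day 5 mice and 776, 560.0, 625 and 311 in the day 10 mice. All day 10 mice were above all earlier mice, and Pvalb rose by 3.99 ± 0.57 (SE; adjusted p = 6e-05). The pump gene Atp2a2 of the endoplasmic reticulum was at 97.5, 91.7, 124.1 and 82.9 RPKM at day 2 and 186.3, 140.4, 183.97 and 167.1 at day 10 and rose by 0.78 ± 0.17 (SE; adjusted p = 0.00451). Calb1 and Calb2, the calbindins of other neurons, had differences of −1.08 and −0.52 and were not called.

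Of 27 tested transcription and RNA-binding factors of development, 6 fell and 1 rose (25.9% called, against 11.1% of all tested genes), with the same counts without mouse 252 and a median of −0.44. Sox4 was at 7.25, 15.6, 13.0 and 14.5 RPKM in the day 2 mice, 3.87, 5.50 and 4.05 in the day 5 mice and 2.50, 0, 3.70 and 2.87 in the day 10 mice, falling by 2.22 ± 0.43 (SE; adjusted p = 0.0015). Sox12 fell by 1.79 ± 0.34 (SE; adjusted p = 0.00118), while Sox11, the third of that group, had a difference of −0.82 and was not called. Ptbp2, a splicing repressor of young neurons, was at 59.2, 49.4, 62.8 and 75.6 RPKM at day 2 and 24.0, 21.7, 30.6 and 25.0 at day 10. It fell by 1.25 ± 0.25 (SE; adjusted p = 0.00204), and Celf5, another splicing factor, fell by 2.11 ± 0.36 (SE; adjusted p = 0.000416). Nfia, which drives late differentiation, was the 1 that rose (1.56 ± 0.32 (SE; adjusted p = 0.00239)). Of 17 genes that respond to thyroid hormone or glucocorticoids, 4 rose and 2 fell (35.3% called). Neither fall was called without mouse 28, 247 or 252. Klf9, a transcription factor induced by both hormones, was at 4.54, 1.01, 4.75 and 2.61 RPKM in the day 2 mice, 4.599, 6.07 and 10.995 in the day 5 mice and 10.5, 36.8, 35.5 and 34.1 in the day 10 mice. It rose by 2.81 ± 0.40 (SE; adjusted p = 6e-05), with mouse 247 lowest among the day 10 mice. Dio2, the enzyme that makes active thyroid hormone, was at 0 to 0.0439 RPKM at day 2 and 1.54 to 3.16 at day 10, and rose by 1.69 ± 0.30 (SE; adjusted p = 0.000624). Mt1, metallothionein 1, was at 101.3, 96.96, 72.99 and 99.2 RPKM in the day 2 mice, 76.9, 88.1 and 155 in the day 5 mice and 496, 553, 492 and 249.8 in the day 10 mice, and rose by 2.21 ± 0.33 (SE; adjusted p = 8.73e-05). Its neighbour Mt2 had a difference of −0.73 and was not called.

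The remaining lists were mixed. Of 23 sterol synthesis genes, 2 fell and none rose (8.70%, against 11.1% of all tested genes), with 4 falls and 1 rise without mouse 247. Hmgcs1, the first committed enzyme, was at 193.1, 261, 251.01 and 276 RPKM at day 2 and 151, 66.1, 75.7 and 93.8 at day 10, and fell by 1.39 ± 0.23 (SE; adjusted p = 0.000306), and Fdps fell by 1.87 ± 0.36 (SE; adjusted p = 0.00136). Of 19 imprinted growth genes only Nnat fell (-1.62 ± 0.31 (SE; adjusted p = 0.00145)), and of 22 proliferation genes only Rrm2 (-2.48 ± 0.45 (SE; adjusted p = 0.000673)). The called shares of these lists were 5.3% and 4.5%, against 11.1% of all tested genes. Of 17 immediate early genes, Bdnf and Homer1 fell (11.8% called, near the 11.1% of all tested genes). Fos, Egr1 and Arc had differences of 0.21, 0.06 and 0.58, none called. Bdnf, a neurotrophin, was at 22.4, 15.1, 8.65 and 25.7 RPKM at day 2 and 0.659, 0, 5.595 and 2.90 at day 10, a difference of -2.79 ± 0.50 (SE; adjusted p = 0.000669). Of 8 MHC class I and complement genes, C1qb rose and B2m and H2-K1 fell (37.5%). B2m, the light chain of MHC class I, was at 36.8, 35.3, 35.8 and 78.1 RPKM in the day 2 mice, 29.5, 35.8 and 37.04 in the day 5 mice and 14.5, 10.2, 15.6 and 9.93 in the day 10 mice. All day 10 mice were below all earlier mice, and it fell by 1.75 ± 0.37 (SE; adjusted p = 0.00298).

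**Figure D3:**
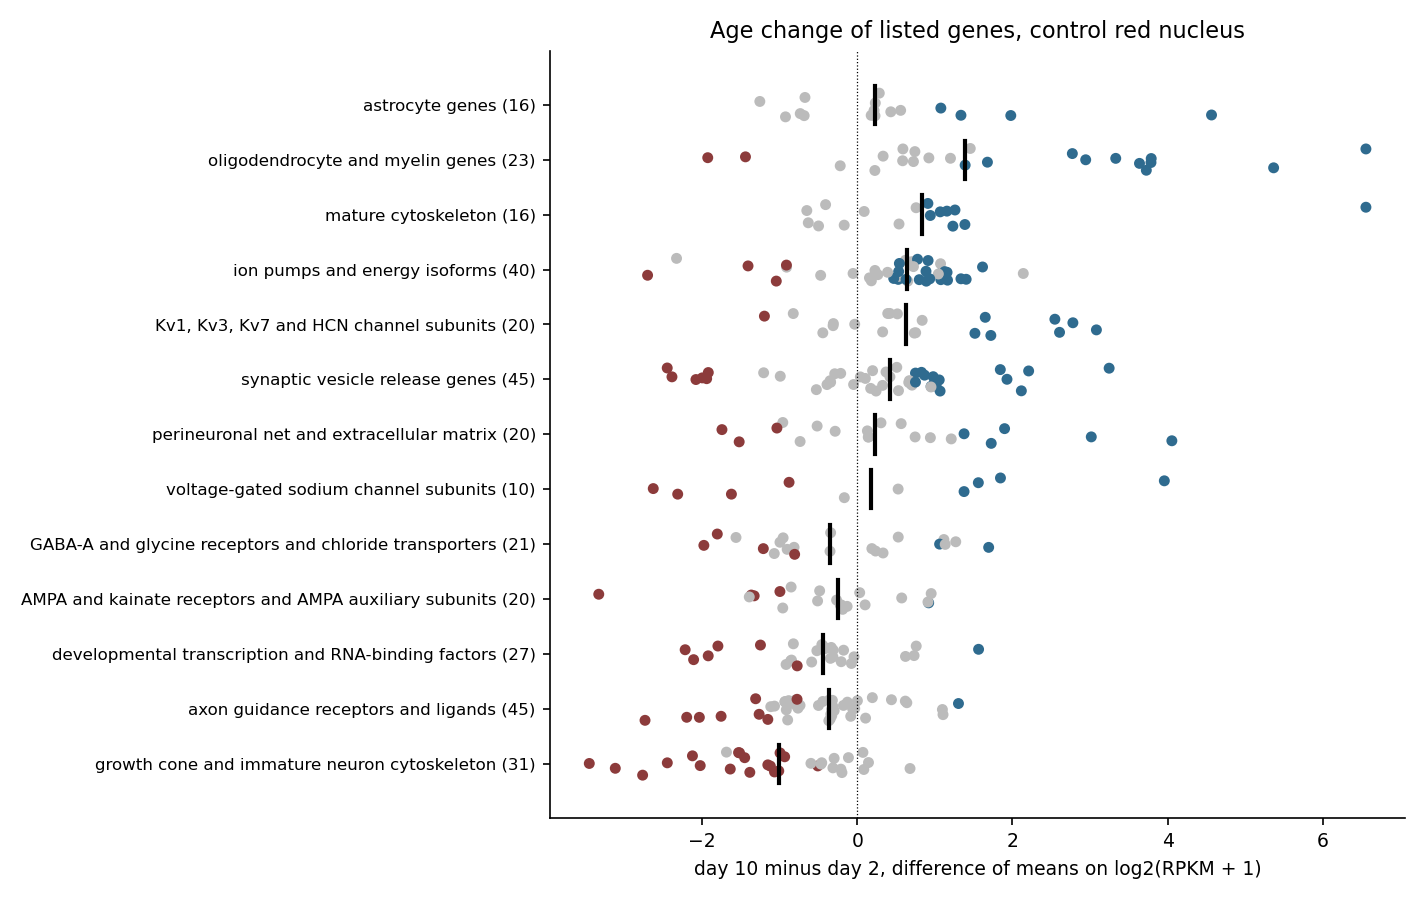
Difference between day 10 and day 2 on the log2(RPKM + 1) scale for each tested gene of 13 lists, with blue for genes called higher, red for genes called lower, grey for genes not called, a black bar for the list median and the number of genes tested in brackets. The growth cone list has 18 red points, no blue one and a median of −1.01, and the myelin list has 11 blue points, 2 red ones and a median of 1.39.

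Among the 15 largest rises and 15 largest falls, several genes were in none of these groups. Hhatl, a relative of hedgehog acyltransferase, was at 0, 0.329, 0 and 0 RPKM in the day 2 mice, 1.42, 4.22 and 1.14 in the day 5 mice and 29.1, 39.7, 15.3 and 19.3 in the day 10 mice. It rose by 4.56 ± 0.56 (SE; adjusted p = 9.86e-06). Sgpp2, a sphingosine-1-phosphate phosphatase, was at 0, 2.26, 0.0749 and 0 RPKM in the day 2 mice, 0.469, 5.30 and 4.88 in the day 5 mice and 36.7, 19.6, 29.2 and 24.9 in the day 10 mice and rose by 4.35 ± 0.45 (SE; adjusted p = 1.49e-06). Fn3k, a kinase that removes sugar adducts from proteins, rose by 4.40 ± 0.68 (SE; adjusted p = 0.00016), and Tesc, a calcium-binding regulator of proton exchange, rose by 4.28 ± 0.64 (SE; adjusted p = 9.04e-05). Spp1, the secreted phosphoprotein osteopontin, was at 4.53, 0, 0 and 5.76 RPKM in the day 2 mice, 8.67, 0.349 and 0.0842 in the day 5 mice and 158.8, 108, 46.8 and 23.7 in the day 10 mice. The 4 day 10 mice were above all others, with a difference of 4.77 ± 0.78 (SE; adjusted p = 0.000283), though they spread widely among themselves. Adm, Apod and Car7 were at 0 in every day 2 mouse. Adm, the vasoactive peptide adrenomedullin, was at 10.2, 36.01, 9.91 and 13.4 RPKM at day 10 (adjusted p = 6.64e-06). Car7, a carbonic anhydrase of neurons that takes part in bicarbonate supply, was at 8.72, 24.8, 18.9 and 14.7 (adjusted p = 6.62e-05), and Apod, a lipid carrier, was at 38.5, 28.3, 17.8 and 4.52 (adjusted p = 5.23e-05).

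The largest falls also held genes outside the lists. Cxadr, an adhesion protein of growing neurons and the receptor for coxsackie and adenoviruses, was at 71.9, 40.9, 68.3 and 75.6 RPKM in the day 2 mice, 53.3, 67.5 and 28.5 in the day 5 mice and 7.34, 2.04, 2.94 and 3.23 in the day 10 mice. The day 5 mice overlapped the day 2 mice and all 4 day 10 mice were lower, with a difference from day 2 to day 10 of -3.81 ± 0.35 (SE; adjusted p = 2.44e-07). Fabp7, a fatty acid carrier of radial glia, was at 445, 531, 422 and 925 RPKM in the day 2 mice, 522, 435 and 417 in the day 5 mice and 58.1, 36.4, 72.7 and 84.6 in the day 10 mice. Day 5 overlapped day 2 and all day 10 mice were lower, and it fell by 3.18 ± 0.35 (SE; adjusted p = 3.37e-06). Zfp57, which keeps imprints in place, fell by 3.40 ± 0.53 (SE; adjusted p = 0.000172), and S100a11 fell by 3.31 ± 0.56 (SE; adjusted p = 0.000365). Stk32b, a kinase, was at 31.2, 24.5, 21.7 and 43.2 RPKM at day 2 and 0, 3.40, 3.34 and 6.29 at day 10, and fell by 3.13 ± 0.45 (SE; adjusted p = 6.62e-05). Prkcd, Acot1, Spint2 and Apex1 fell as well, by 3.07 to 3.56. The row named SMN2, after a human transgene carried by all mice, also fell, with 157.2 to 245.2 RPKM at day 2 and 62.1 to 119.4 at day 10 (-1.15 ± 0.25 (SE; adjusted p = 0.00412)). All mice carried the human SMN∆7 transgene too. Whether reads of both transgenes are in this row was not tested, so the fall cannot be assigned to SMN2 alone.

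Mouse 252 was set against the other day 10 mice because of its depth. Without it 1247 of 16036 genes were called, 661 higher and 586 lower. Of these, 1136 were among the 1797 called with it, which is 63.2% of that list and 91.1% of the shorter one. All 1796 called genes that could be tested without it kept their direction, and their median absolute difference went from 1.45 to 1.37. These genes were called with mouse 252 in the fit and the other mice stayed the same. Their direction was thus largely set by the choice and is no test of this mouse. The library was short of low values. Of the 874 genes that fell, 89 were at 0 in this mouse alone, against 20 for mouse 247, none for mouse 253 and 1 for mouse 254. Of all 16134 tested genes, 537 were at 0 in mouse 252 while every other day 10 mouse was at 1 RPKM or more. That number was next highest for mouse 247, and it was 27 for mouse 253 and 17 for mouse 254. Its mean correlation with the other day 10 mice was 0.877, close to the 0.879 of mouse 247 and below the 0.909 and 0.905 of the other two.  Without mouse 252, the difference of Mbp was 6.55, that of S100b 4.42 and that of Cacng4 −3.40.

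The same interval was compared in SMA mice, which share no sample with the controls. In these, 816 genes were called between day 10 and day 2 (5.06%), 481 higher (2.98%) and 335 lower (2.08%). Of the 923 genes that rose in controls, 316 (34.2%) rose in SMA mice, which is 65.7% of the genes that rose there, and none fell. Of the 874 that fell in controls, 230 (26.3%) fell in SMA mice, or 68.7% of those that fell there, and none rose. The median difference in SMA mice was 0.80 for the genes that rose in controls and −0.74 for those that fell, against 1.45 and −1.44 in the controls that chose them. No gene (0%) passed the test of the difference between the 2 genotypes (limma), with 1093 at an unadjusted p under 0.05 and a smallest adjusted p of 0.0713, and without SMA mouse 209 there were 4. A missed threshold does not show that the genotypes matured alike. The SMA count itself was 385 to 490 when mouse 199, 211, 249 or 258 was left out.

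**Figure D4:**
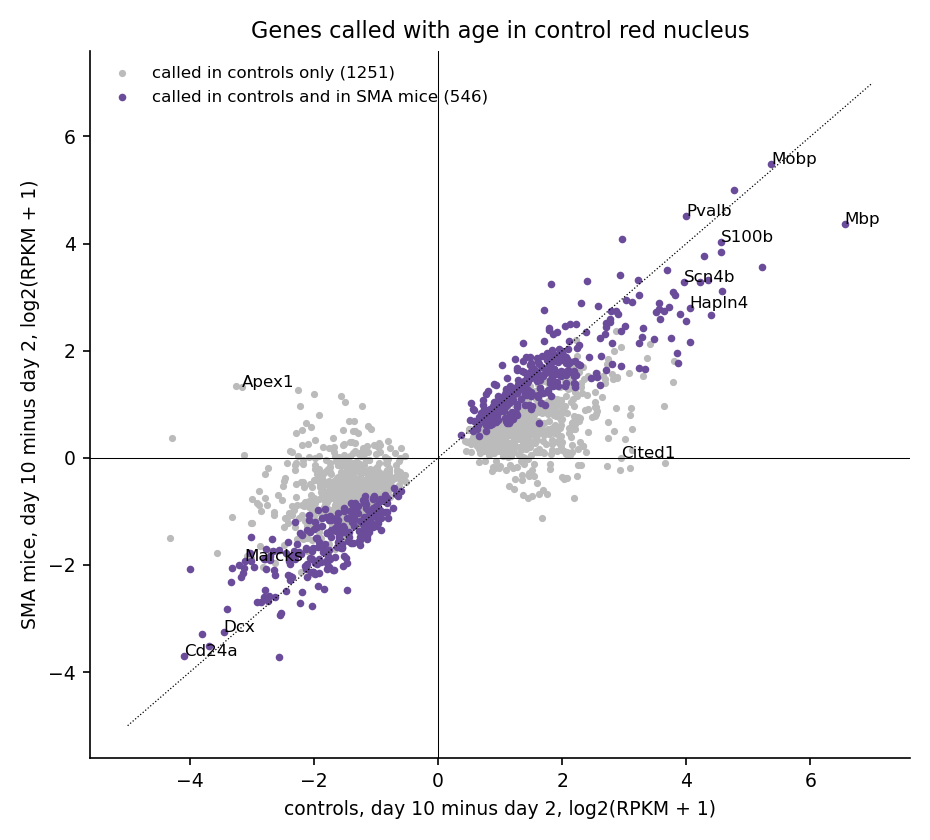
Day 10 minus day 2 difference on the log2(RPKM + 1) scale in control mice (horizontal) and SMA mice (vertical) for the 1797 genes called in controls, each point 1 gene and purple for the 546 also called in SMA mice. The genes were chosen by the horizontal value, and the purple points lie in the quadrants where both differences have one sign.

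In the SMA red nucleus 15 of the 31 growth cone genes fell and none rose, and 9 of the 23 tested myelin genes rose and 1 fell. Of all tested genes, 2.98% rose and 2.08% fell in SMA mice. Scn4b was at 2.27 to 4.73 RPKM in the day 2 SMA mice and 31.9 to 41.7 in the day 10 SMA mice, and rose by 3.29 ± 0.36 (SE; adjusted p = 1.1e-05). Dcx went from 30.9 to 45.5 to 1.66 to 5.47, and fell by 3.26 ± 0.35 (SE; adjusted p = 8.96e-06). Pvalb went from 6.58 to 78.6 to 411.1 to 807.2, and rose by 4.52 ± 0.57 (SE; adjusted p = 4.58e-05). Mbp was at 10.1 to 19.4 RPKM in the day 2 SMA mice, above the 4 day 2 controls, and at 235 to 439.6 at day 10, overlapping the controls. It rose by 4.36 ± 0.37 (SE; adjusted p = 6.61e-07) in SMA mice. Syp, called in controls, had a difference of 0.21 ± 0.16 (SE; adjusted p = 0.552) in SMA mice.

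The change from day 2 to day 10 was then set against that of ocular motor neurons of control mice in a fit of both populations. Of 15990 genes, 47 changed differently (0.294%). In 34 the red nucleus difference was the more positive (0.213%), and in 13 the more negative (0.0813%). For 28 of the 34, the red nucleus mean at day 2 was below the ocular mean. In 20 of the 34 the red nucleus difference was positive and the ocular one negative, and in 13 both were positive. In 11 of the 13 others the red nucleus difference was negative and the ocular one positive. The genes were chosen by a difference that holds these means and signs, so the choice partly sets these counts. They were not compared with the counts over all tested genes. The count was 29 without ocular mouse 247 and 30 without red nucleus mouse 254. Of the mice, 10 gave both populations, and with the mouse as a block 20 genes were called.

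The 2 largest positive differences were those of Plcd4 (5.926) and Cited1 (5.527), for which the ocular difference was negative (−1.355 and −2.577). Pvalb was also among the 5 largest, while Hapln4, Cplx1 and S100b were not and were picked from the other called genes. Pvalb, Hapln4, Cplx1 and S100b were low in the red nucleus at day 2 and already high in ocular neurons. Pvalb had a mean of 44.9 RPKM in the red nucleus and 1651 in ocular neurons at day 2, and of 568 and 1778 at day 10. The ratio of ocular to red nucleus means thus went from 36.7 to 3.13, and the 2 changes differed by 3.85 ± 0.59 (SE; adjusted p = 0.00282). Hapln4 had means of 6.32 and 54.5 at day 2 and rose to 116.6 in the red nucleus, so the ocular level was 8.63 times that of the red nucleus at day 2 and 1.06 times at day 10. The difference of changes was 2.84 ± 0.40 (SE; adjusted p = 0.00109). Cplx1 had means of 205.4 and 801.3 at day 2 and of 870.8 and 1059 at day 10 (1.71 ± 0.28 SE; adjusted p = 0.00567). S100b went from 10.6 to 213.1 in the red nucleus and from 204.8 to 648 in ocular neurons (2.90 ± 0.55 SE; adjusted p = 0.0163). These 4 genes rose in the red nucleus from a lower level at day 2, and for Hapln4 and Cplx1 the populations were close at day 10.

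For Hapln1 and Cd24a the order of the populations reversed. Hapln1 went from a mean of 4.10 to 40 RPKM in the red nucleus and from 45.8 to 27.2 in ocular neurons (difference of changes 3.76 ± 0.49 SE; adjusted p = 0.000666). Cd24a fell from 39.4 to 1.18 in the red nucleus, while its ocular mean was 6.49 at day 2 and 24.5 at day 10 (−6.13 ± 0.85 SE; adjusted p = 0.00108). Pcp4 and Esrrb kept their order and were chosen after their values were seen. Pcp4, a calmodulin-binding peptide, was higher in the red nucleus at both ages, at 2745 and 5037 there and at 1397 and 419.2 in ocular neurons (2.60 ± 0.30 SE; adjusted p = 0.000184). Esrrb, an oestrogen-related receptor, was lower in the red nucleus at both ages, with means of 3.33 and 16.9 there and of 61.4 and 34.1 in ocular neurons (3.04 ± 0.51 SE; adjusted p = 0.00567). With the mouse as a block its adjusted p was 0.0687. With the block, Pvalb, Hapln4, Cplx1, S100b, Hapln1, Pcp4 and Cd24a were still called.

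**Figure D5:**
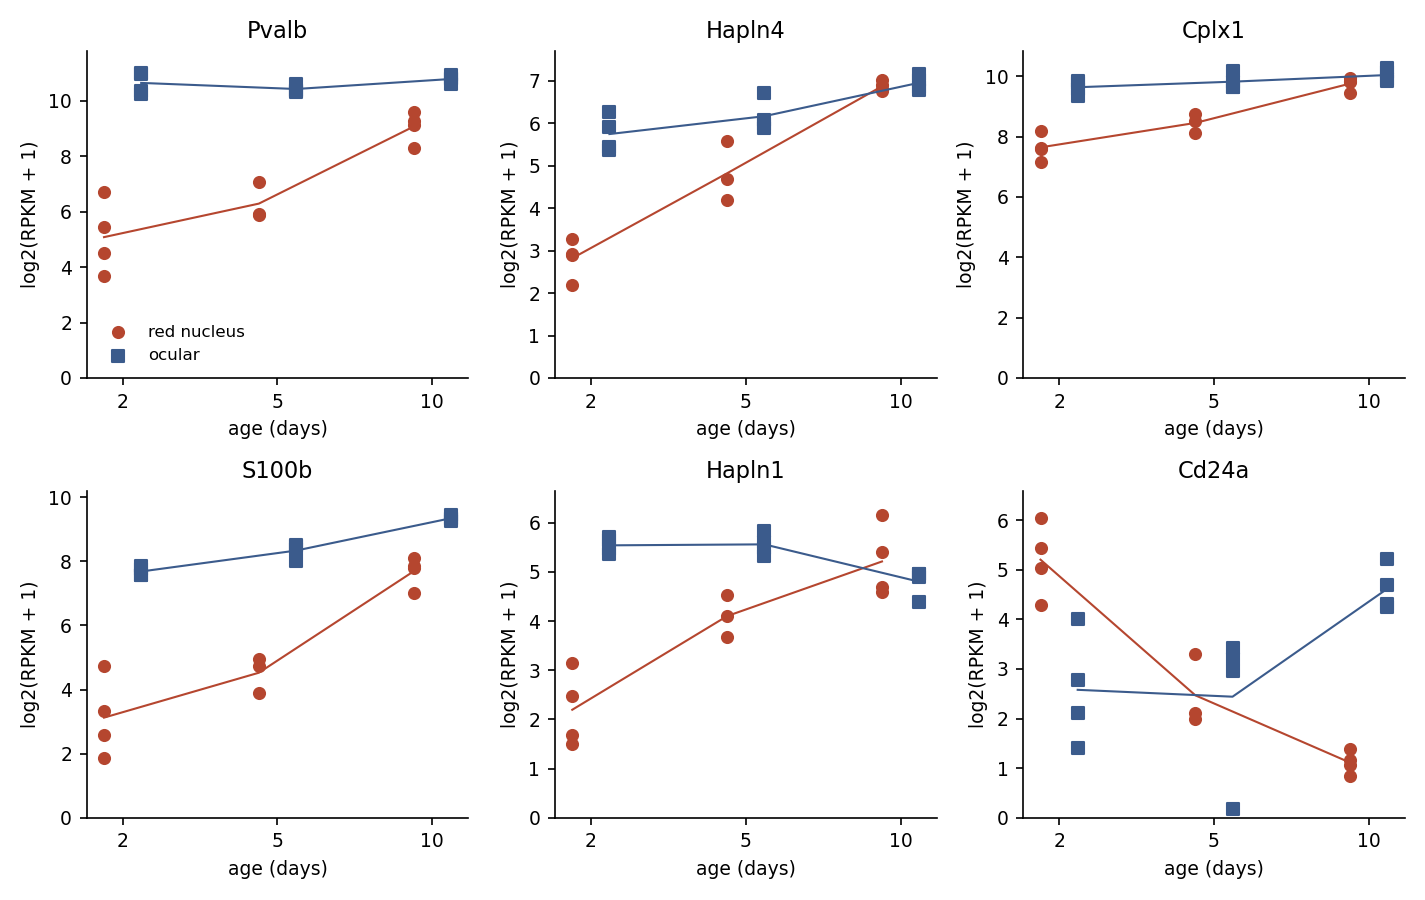
Expression as log2(RPKM + 1) by age in control red nucleus (red circles) and control ocular neurons (blue squares) for 6 genes whose change with age differed, each point 1 mouse and lines joining the means. Pvalb, Hapln4, Cplx1 and S100b start lower in the red nucleus and approach the ocular level, Hapln1 crosses upward and Cd24a crosses downward.

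Against lumbar motor neurons 284 of 16456 genes changed differently (1.73%), 220 with the red nucleus difference more positive (1.34%) and 64 more negative (0.389%). This comparison shares the red nucleus samples with the one above. With the mouse as a block 17 genes were called, and the count was as low as 160 when a lumbar mouse was left out (240, 244, 247, 252 or 254, each of which lowered it by over 1.5 times). Tac1, the precursor of substance P, was at 39.4 RPKM in the red nucleus at day 2 and 102.1 at day 10, and at 58.5 and 6.30 in lumbar neurons (4.52; adjusted p = 0.0421 with the block). Crip2, a LIM domain protein, was at 161.7 and 44.9 in the red nucleus and at 10.8 and 58.0 in lumbar neurons (−4.23; adjusted p = 0.0288 with the block). The other 8 genes named by the rule for this comparison were not called with the block.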

How the data were processed

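The authors deposited 1 table of RPKM for all libraries, and every column matched the labels of a single library. Per the submitters' processing notes the tools and builds were STAR 2.4.1c, mm10 and hg19. The read counter, the annotation and any use of strand are not given in the sources used here, so overlapping genes and close copies (Tuba1a, Acot1, H2-K1, haemoglobins) are uncertain. Depth in reads was recovered from the equal steps of low RPKM values in 17340 genes with 1 transcript. Each control red nucleus library had 953 to 1634 such low values. Of these values 70.3% to 81.8% fell on whole reads, so no count test was run. The recovered depth is an estimate of counting depth, and floors cover counting error only.

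Deposited RPKM were put on the log2(RPKM + 1) scale, and R 4.3.3 with limma 3.58.1 gave the tests (linear model, moderated with a trend, 2-sided). The 23 red nucleus mouse samples of both genotypes shared 1 fit with 6 groups, and 2 libraries of SMA mouse 31 were averaged. Genes needed an RPKM of at least 1 in 3 mouse samples. P-values were adjusted by Benjamini-Hochberg over all tested genes, with a threshold of 0.05. Changes with age were compared with ocular and lumbar neurons in 2 fits of both populations. The code was tested on simulated data. Mice shared between populations come from the labels' mouse numbers. Deviations from the group means correlated by 0.0255 to 0.115 over 10 mice between red nucleus and ocular samples, and by −0.0481 to 0.106 over 9 mice between red nucleus and lumbar samples.

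The lists held 593 symbols, of which 587 matched a row. Some list members are counted but not reported here by name. The samples, lists and tests were chosen with earlier results of these data known. Named genes were the list members and, per comparison, the largest called changes without overlap between ages (a mean of at least 10 RPKM in the higher group; 15 each way for day 10 against day 2, 3 for the other ages, 5 for the other populations). Gene positions are from GENCODE M21 (GRCm38), and promoter windows from RefSeq (GRCm38.p6). Alternatives were another pseudocount, no or a stricter filter, quantile normalisation, sample weights, sex, control mice alone, the replicate block and each mouse left out. List counts under some of these settings were added after seeing the data.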

Additional observations from a re-analysis of the deposited data

Results flagged for a closer look

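In groups of 4 control mice, values of described genes were checked for a mouse far from the other 3, taking the gap to the nearest mouse over the whole range against Dixon's 95% critical value for 4 values. In 11 cases (7.80% of those checked) a mouse stood out, where chance flags about 1 in 20 groups. Mouse 247 gave 4 of them, mice 28, 244 and 252 gave 2 each and mouse 26 gave 1. At day 10 mouse 247 was high for Scn2b (429.5 RPKM, next 195.1) and Pou4f1 (290.9, next 112.9), and low for Scn8a (36.6, next 70.5) and Klf9 (10.5, next 34.1). Mouse 244 was high at day 2 for Gria3 (29.0, next 16.8) and B2m (78.1, next 36.8). Mouse 28 was high at day 2 for Gap43 (2321, next 1774) and low for Mt1 (72.99, next 96.96). Mouse 252 was low at day 10 for Slc17a6 (132.1, next 195.8) and high for Adm (36.01, next 13.4). Mouse 26 was high at day 2 for Tesc (28.9, next 3.64).

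The change between day 2 and day 10 in controls differed between red nucleus and ocular neurons for 47 genes, and between red nucleus and lumbar neurons for 284, by limma's test of the difference of changes. Of the mice, 10 and 9 gave both populations, and with the mouse as a block the counts were 20 and 17.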

How the results depend on the processing

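Direction was followed for genes called in the main fits of control mice, mostly list members and the largest changes. None of them changed direction under any alternative. They were chosen by their calls in fits that share most samples with the alternatives, so this was largely set by the choice. Direction was not followed for the other named genes, among them those that were not called. Higher calls outnumbered lower ones at day 10 against day 2 (923 and 874), but not without mouse 26 (809 and 848), 253 (753 and 780) or 254 (786 and 825). The median of the calcium list went from 0.03 to −0.13 with quantile normalisation and −0.29 without mouse 244, and those of the neurotrophic receptor and immediate early lists changed sign without mouse 252 (0.14 to −0.08 and −0.17 to 0.05). With only control mice in the fit, day 10 against day 2 gave 914 calls, day 5 against day 2 gave 4, day 10 against day 5 called 1.20% of tested genes and the test of any change with age 550 (1508 in the full fit, 9.35%). With a mean RPKM of at least 10, day 5 against day 2 gave 53. With sample weights, SMA day 10 against day 2 gave 1700. Without a filter, 1 gene differed between the genotypes in its change. Leaving out 1 mouse gave 1247 to 1794 calls for day 10 against day 2, 9 to 77 for day 5 against day 2, 1.60% to 4.50% of tested genes for day 10 against day 5, 1083 to 1514 for any change, 385 to 923 in SMA mice, 0 to 4 for the genotype difference, 29 to 59 for the ocular difference and 160 to 412 for the lumbar one. With the replicate block, which pairs populations by mouse, the ocular difference gave 20 genes and the lumbar one 17. Quantile normalisation gave 1707 calls for day 10 against day 2, and moved the share of lumbar differences that were more positive from 77.5% to 63.7%. Of the genes named as called between days 10 and 2, 53 were not called with control mice alone, 27 with sample weights, 26 without a filter, 14 with quantile normalisation, 5 with a pseudocount of 0.1 and 3 with sex as a covariate. With only libraries numbered above 200, which leaves 1 day 2 mouse assumed to vary like the other groups, 75 were not called. The depth of mouse 252 limits genes below about 4.39 RPKM.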
